A study of Neurospora crassa with 16 samples.

Results

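Messenger RNA of 6 genes of the circadian clock and of blue light sensing was followed in the filamentous fungus Neurospora crassa. The genes were frq (NCU02265), frh (NCU03363), wc-1 (NCU02356), wc-2 (NCU00902), vvd (NCU03967) and cry (NCU00582). They were named by locus identifier and are 6 of the 9730 genes counted. Each of the 6 passed the filter on low counts, which 8983 genes passed. Mycelia of a wild type (WT) and of a strain labelled △stk-12, a deletion of a serine/threonine protein kinase gene (here the mutant), were grown from conidia in Vogel's salts with Avicel, a crystalline cellulose, as carbon source. All cultures of both strains stood in constant light at a single temperature and were harvested after 12 h, 1 day, 3 days or 5 days, which gave 8 groups of 2 libraries. Nothing in the labels tells whether 2 replicates came from 2 cultures, and p-values therefore reflect the spread of these libraries alone, which may be technical.

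The White Collar proteins WC-1 and WC-2 are transcription factors that work as a complex. WC-1 binds a flavin in its LOV domain and is the main blue light receptor, so the complex turns on light-responsive genes, among them frq, vvd, cry and the carotenoid genes. In darkness the same complex drives frq, and the FRQ protein, bound to the RNA helicase FRH and to casein kinase I, represses the complex in a daily loop. VVD, a small protein with a LOV domain, binds the activated complex and dampens it under continued light. CRY is a cryptochrome of the DASH type, a flavoprotein that absorbs blue light. In constant light the rhythm of conidial banding is lost in wild-type strains, so the harvest times here are culture ages and not clock phases.

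Reads assigned to genes ran from 14946389 to 26466759 per library, and the 6 genes held between 684 and 12993 reads in a library. The targeted gene stk-12 was lower in the mutant at every time but not absent, at 38.2, 24.5, 35 and 43.3% of the WT level at 12 h, 1 day, 3 days and 5 days. The strains also differed in transcripts of mating type: matA-1 had 0 reads in the 8 mutant libraries and at least 350 in each WT library, so effects of stk-12 and of other strain differences cannot be told apart. Replicates differed most in WT at 5 days and in the mutant at 1 day, where chi-square over its degrees of freedom, computed from their counts, was 22.6 and 18, against 4 to 10.8 in the other 6 groups. No pair was identical within sampling noise. Those 2 pairs differed by more than other pairs in vvd and cry. Calls of these genes that change without one of the 4 libraries are given, with the log2 value without it where the test has one. Levels over samples are given as CPM, read counts divided by a scaled library size. Summed over 8 markers of conidiation, the formation of asexual spores, they were 731 ± 7.92, 1027 ± 87.1, 3671 ± 113 and 3061 ± 550 CPM in WT at the 4 times (mean ± SD, n = 2). In the mutant the sum was 692 ± 92.7, 836 ± 27.3, 1661 ± 39.5 and 4297 ± 69.6 CPM at the 4 times, with no marker at 0 in any library, and its part in the results below was not tested. The sum follows its most abundant members, and single markers did not all move with it. From 12 h to 1 day, 1 marker was called as rising (ccg-1) and 5 as falling in each strain. At 5 days 3 were called higher and 4 lower in the mutant, with a median log2 difference of -0.83. In bulk mycelium, fewer cells of a type and less RNA per cell cannot be told apart.

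Per length of gene, vvd and frq were the most abundant of the 6 transcripts and wc-1 and frh the least. In the deposited RPKM values, which divide reads by gene length and by the library's total, vvd ranked first in 11 of 16 libraries and frq in the other 5. wc-1 ranked last in 13 libraries and frh in 3. The level of frq lay between the 83.8 and the 91.8 percentile of all genes of a library, and that of vvd between 80.9 and 97.2. wc-1 lay between the 30.2 and 59.3 percentile and frh between 36.8 and 62.2, so the light receptor and the helicase partner of FRQ were mid-range transcripts throughout. wc-2 and cry stood between these pairs, at 66.5 to 84.8 and 63.5 to 89.6.

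**Figure D1:**
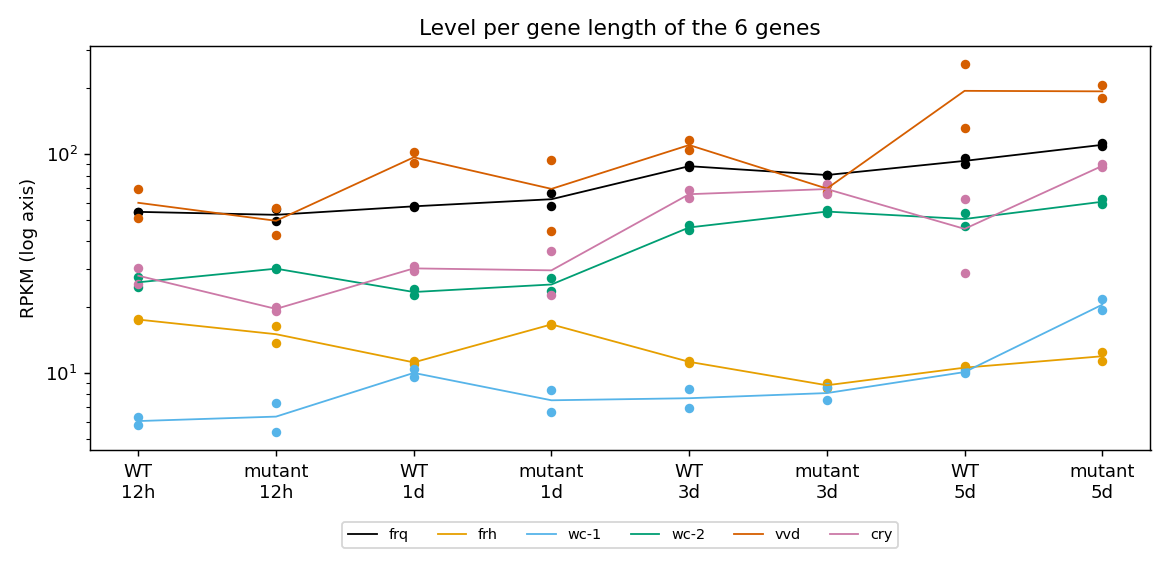
Level per gene length (RPKM, log axis) of the 6 genes in the 8 groups of strain and time; points are the 2 libraries of a group and lines join group means. frq and vvd lie above the other genes in most libraries, and wc-1 lies lowest in 13 of 16; RPKM is not scaled for composition, so levels are to be compared between genes of a library.

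The partners of a complex were thus unequal in transcript level. The ratio of wc-1 to wc-2 in RPKM was 0.233 ± 0.0316 (SD, n = 2), 0.428 ± 0.0462, 0.165 ± 0.0158 and 0.201 ± 0.0227 in WT at 12 h, 1 day, 3 days and 5 days. In the mutant it was 0.211 ± 0.0426, 0.295 ± 0.0196, 0.148 ± 0.0101 and 0.338 ± 0.0161. wc-1 thus peaked relative to wc-2 at 1 day in WT and at 5 days in the mutant. The ratio of frh to frq was lower at later ages in both strains, going from 0.322 ± 0.00242 at 12 h to 0.114 ± 0.00361 at 5 days in WT and from 0.284 ± 0.0104 to 0.108 ± 0.00907 in the mutant. At 1 day the strains stood apart, at 0.194 ± 0.00142 in WT and 0.269 ± 0.0281 in the mutant.

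Over the 8 groups, frq varied least. Its highest group mean in CPM was 1.60 times its lowest, against 2.01 times for wc-2, 2.38 for frh, 2.77 for wc-1, 2.99 for vvd and 3.46 for cry. The median of that ratio over the 8799 tested genes with reads in every group was 2.97, with quartiles of 1.95 and 5.96. Of the 6, cry thus exceeded the median gene, vvd was about level with it, and frq, wc-2, frh and wc-1 lay below it. By mean, the mutant at 5 days was the highest group for frq, wc-1, vvd and cry, although for vvd its libraries lay between the 2 of WT at that age.

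**Figure D2:**
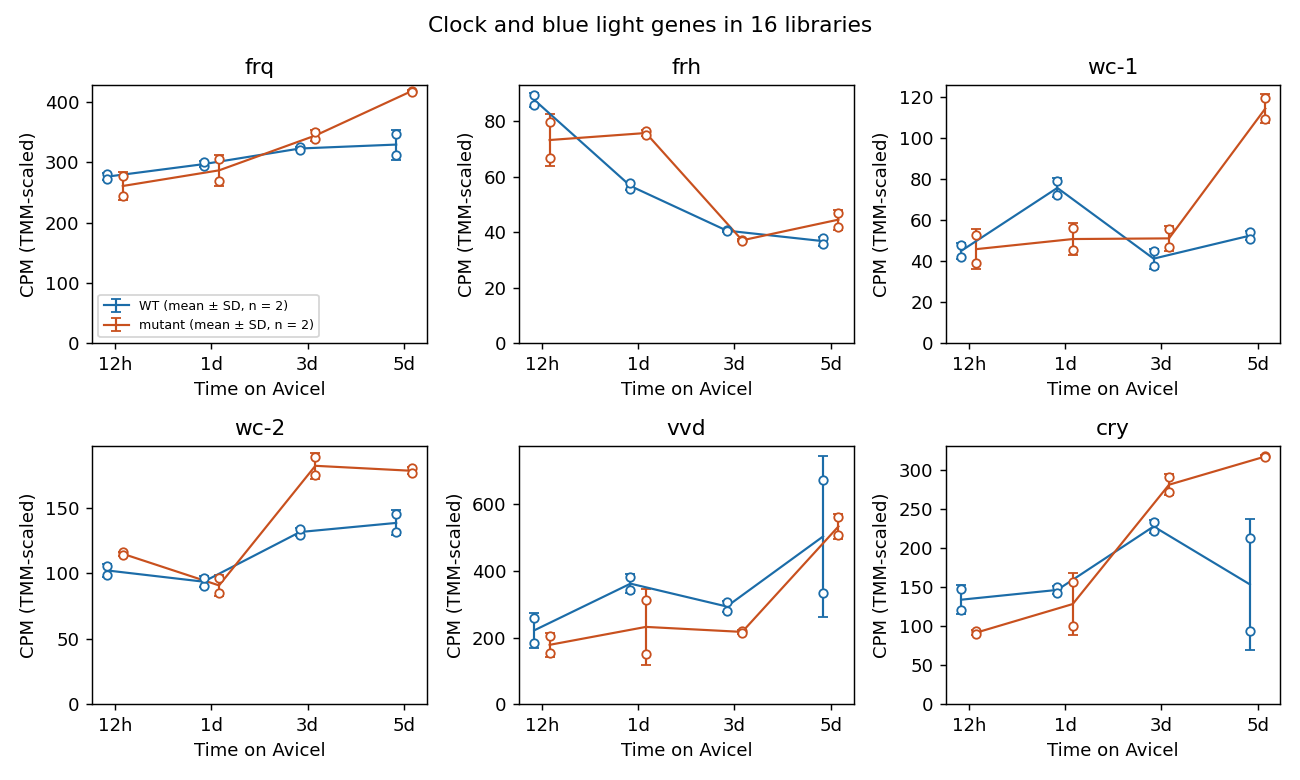
CPM scaled by TMM (trimmed mean of M values) of each gene at the 4 culture ages in WT and mutant; open points are libraries, lines join means and bars are SD (n = 2). By mean, the mutant at 5 days is the highest group for frq, wc-1, vvd and cry (for vvd the strains overlap at that age), and the replicates of WT at 5 days lie far apart for vvd and cry.

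The question of the design is how the strains differ at each culture age. At 12 h, 1 of the 6 genes was lower in the mutant (frh) and 0 were higher, where 6.51% of all genes tested were called lower and 6.53% higher (edgeR quasi-likelihood test, Benjamini-Hochberg adjusted p under 0.05). The number of all genes called at 12 h was 1172; it was 463 with WT replicate 1 of that age left out and 541 with mutant replicate 2 left out. At 1 day, 1 gene was lower (wc-1) and 1 higher (frh), beside 18% and 19.1% of all genes. At 3 days, 1 was higher (wc-2) and 0 were lower, beside 29.4% and 30%. At 5 days, 5 of 6 were higher (all but vvd) and 0 lower, beside 30.6% and 30.9% of all genes. The genotype difference was unequal over the 4 times for 5 of 6 genes, again all but vvd, and for 77.5% of all genes, a share close to that of the 6. For vvd the adjusted p of this test was 0.399 (edgeR). With 1 library left out, vvd passed in 2 of 16 fits: without WT 5-day replicate 1 and without mutant 1-day replicate 2.

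Each step in culture age was called for 1 to 4 of the 6 genes. In WT from 12 h to 1 day, 2 rose (wc-1, vvd) and 1 fell (frh), beside 26.1% and 30.7% of all genes. From 1 to 3 days in WT, 2 rose (cry, wc-2) and 2 fell (wc-1, frh), beside 41.9% and 37.1%, and from 3 to 5 days 2 rose (wc-1, vvd) and 0 fell, beside 27.1% and 27.5%. In the mutant, 0 rose and 1 fell (wc-2) from 12 h to 1 day, beside 21.4% and 19.3%. The mutant's step from 1 to 3 days had 3 genes that rose (cry, wc-2, frq) and 1 that fell (frh), beside 35.6% and 37%. Its last step had 4 that rose (frq, wc-1, frh, vvd) and 0 that fell, beside 31.7% and 31.2%.

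Whether a step itself differed between the strains was tested as an interaction. From 12 h to 1 day, the mutant's step exceeded that of WT for 1 gene (frh) and was below it for 1 (wc-1), beside 12.2% and 9.42% of all genes. From 1 to 3 days it exceeded WT for 2 genes (wc-1, wc-2) and was below it for 1 (frh), beside 26.2% and 27.1%. From 3 to 5 days it exceeded WT for 2 (wc-1, frh) and was below it for 0, beside 26.4% and 25.5%. frh and wc-1 were thus called at each of the 3 steps, while frq, vvd and cry were called at none with all 16 libraries and TMM scaling. Without WT 5-day replicate 1 the last step differed for all 3, by 0.33, 1.12 and 1.45 on the log2 scale. With any other 1 of the 8 libraries of this step left out it was called for none of them. The values then went down to 0.13, 0.055 and 0.23. With library totals the last step differed for frq (0.38) and cry (0.88).

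**Figure D3:**
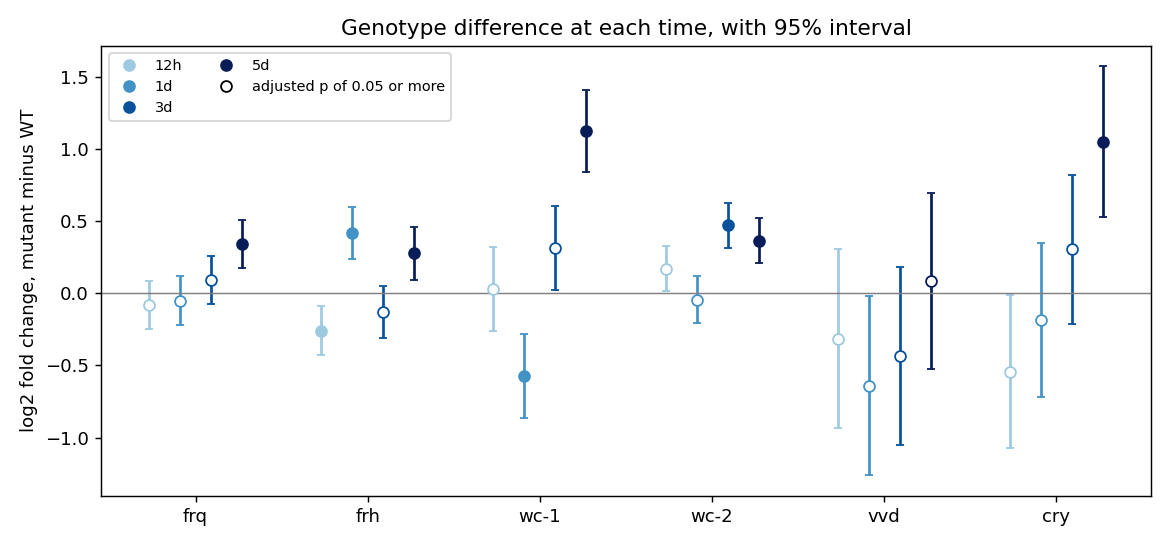
Log2 fold change of mutant minus WT for each gene at 12 h, 1 day, 3 days and 5 days with its 95% interval from the edgeR fit; filled points have an adjusted p under 0.05. At 5 days the points of frq, frh, wc-1, wc-2 and cry are filled and above 0, and vvd lies at 0.08 with an interval across 0.

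wc-1, the blue light receptor and activator, differed between the strains in opposite directions at 1 day and 5 days. In WT the libraries held 47.9 and 42.4 CPM at 12 h, 79.2 and 72.6 at 1 day, 37.9 and 44.9 at 3 days, and 54.2 and 51.0 at 5 days. In the mutant they held 53.0 and 39.1, 45.4 and 56.5, 46.8 and 55.7, and 120 and 109 CPM. WT peaked at 1 day above both mutant libraries of that age, whereas at 5 days both mutant libraries stood above every other library of the series. The mutant was lower at 1 day by a log2 fold change of -0.57 ± 0.138 (SE; edgeR, adjusted p = 0.00446) and higher at 5 days by 1.12 ± 0.132, or 2.18-fold (edgeR, adjusted p = 2.11e-06). At 12 h the difference was 0.03, with a 95% interval from -0.26 to 0.32. At 3 days the mutant's libraries lay above those of WT, at a log2 difference of 0.31 ± 0.137 that missed the threshold (edgeR, adjusted p = 0.0605) and passed it when only those 4 libraries were fitted (edgeR, adjusted p = 0.0046).

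The course of wc-1 over time differed accordingly. In WT it rose from 12 h to 1 day by 0.75 ± 0.137 on the log2 scale (edgeR, adjusted p = 0.00022) and fell by 0.88 from 1 to 3 days (edgeR, adjusted p = 2e-05). The mutant's values for these steps were 0.15 and 0.01, neither past the threshold. From 3 to 5 days the mutant rose by 1.16 ± 0.132 (edgeR, adjusted p = 1.05e-06) and WT by 0.35 ± 0.137 (edgeR, adjusted p = 0.0413). The mutant's step minus the WT step was -0.60 from 12 h to 1 day, 0.88 from 1 to 3 days and 0.81 from 3 to 5 days (edgeR, adjusted p = 0.0366, 0.00114 and 0.00204). The interaction at the earliest step was lost without any of 6 of the 8 libraries (-0.69 to -0.36) and with library totals in place of TMM (-0.48, edgeR adjusted p = 0.0805). With library totals the WT fall from 1 to 3 days was -0.39 and the interaction of that step 0.49. The late rise in WT was lost without WT 3-day replicate 1 (0.23) or either WT 5-day replicate (0.30 and 0.39).

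wc-2, the partner of WC-1, was higher in the mutant at the 2 later ages. WT libraries held 98.7 and 106 CPM at 12 h, 90.6 and 96.8 at 1 day, 129 and 134 at 3 days, and 132 and 145 at 5 days. Those of the mutant held 116 and 114, 85.3 and 96.4, 175 and 189, and 180 and 177 CPM. At 3 and 5 days all 4 mutant libraries stood above all other libraries, while at 1 day the strains overlapped. The log2 fold change was 0.47 ± 0.0728 at 3 days (1.38-fold; edgeR, adjusted p = 3.52e-05) and 0.36 ± 0.0728 at 5 days (1.29-fold; edgeR, adjusted p = 0.000423). At 12 h it was 0.17, with both mutant libraries above both of WT (edgeR, adjusted p = 0.146), and at 1 day -0.04, with an interval from -0.21 to 0.12.

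wc-2 rose from 1 to 3 days in both strains, by 0.49 ± 0.0752 on the log2 scale in WT (edgeR, adjusted p = 1.56e-05) and by 1.00 ± 0.0747 in the mutant (edgeR, adjusted p = 3.98e-09). The mutant's rise was the larger by 0.51 ± 0.106 (edgeR, adjusted p = 0.000656). Before it, the mutant fell by 0.34 from 12 h to 1 day (edgeR, adjusted p = 0.00175), and after it neither strain moved past the threshold. The comparison of the rises rests on the scaling between 1 and 3 days: with library totals alone the WT rise was 0.98 and the difference of the steps 0.13 (edgeR, adjusted p = 0.36). The 3-day difference between strains was then 0.24 (edgeR, adjusted p = 0.0156), and the test of an unequal genotype difference gave an adjusted p of 0.635.

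frq, the repressor of the clock loop, had the narrowest range of the 6 and was higher in the mutant than in WT at 5 days. WT libraries held 281 and 272 CPM at 12 h, 294 and 300 at 1 day, 325 and 321 at 3 days, and 347 and 312 at 5 days. In the mutant the values were 277 and 244, 269 and 305, 338 and 351, and 419 and 417 CPM. Both mutant libraries at 5 days exceeded every other library, and at 12 h and 1 day the strains overlapped. At 5 days the log2 fold change was 0.34 ± 0.0784, or 1.27-fold (edgeR, adjusted p = 0.00128). The 95% intervals at the other ages were -0.25 to 0.08, -0.22 to 0.12 and -0.07 to 0.26. The locus is known to give an antisense transcript as well, and the strand used in counting is not given in the sources used here, so reads of frq and of its antisense partner cannot be told apart.

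Within WT no step of frq passed the threshold in the fit of 16 libraries with TMM scaling; the group means ran from 276 ± 6.11 to 329 ± 24.9 CPM over the 4 ages (SD, n = 2). In the mutant frq rose from 1 to 3 days by 0.26 ± 0.0787 (edgeR, adjusted p = 0.00655) and from 3 to 5 days by 0.28 ± 0.0783 (edgeR, adjusted p = 0.0053). The former call was lost without mutant 1-day replicate 1 (0.17) and the latter without mutant 3-day replicate 1 (0.20); with library totals the latter rise was 0.46. With library totals the WT step from 1 to 3 days was 0.61 (edgeR, adjusted p = 1.3e-06) in place of 0.12; that scaling moved the median of all genes for this step to 0.59. The same step also passed with the stricter filter on low counts (0.24; edgeR, adjusted p = 0.0102), and the WT step from 12 h to 1 day did in a fit of those 4 libraries alone (0.14; edgeR, adjusted p = 0.0322). The mutant's step from 12 h to 1 day passed with library totals (0.24; edgeR, adjusted p = 0.0191).

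frh, which encodes the helicase that holds FRQ in its active form and whose yeast relative Mtr4 serves the nuclear exosome, fell with culture age in both strains but at different times. WT libraries held 89.6 and 86.0 CPM at 12 h, 55.8 and 57.7 at 1 day, 40.9 and 40.4 at 3 days, and 38.0 and 35.7 at 5 days. For the mutant they were 79.9 and 66.7, 76.6 and 75, 37.4 and 37.0, and 42.1 and 47.2 CPM. WT fell between 12 h and 1 day, when the mutant held its level, and the mutant fell after 1 day. The WT change was -0.63 ± 0.0838 from 12 h to 1 day (edgeR, adjusted p = 1.02e-05), where the mutant's was 0.05, and the steps differed by 0.68 ± 0.117 (edgeR, adjusted p = 0.00117). From 1 to 3 days the mutant's change was -1.03 ± 0.0851 (edgeR, adjusted p = 1.47e-08) and that of WT -0.48 ± 0.0863 (edgeR, adjusted p = 8.24e-05), a difference of -0.55 ± 0.121 (edgeR, adjusted p = 0.00119). With library totals alone the WT step from 1 to 3 days was 0.01 (edgeR, adjusted p = 0.932) and the difference -0.93.

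Between strains, frh was therefore higher in the mutant at 1 day, by 0.42 ± 0.085 (1.34-fold; edgeR, adjusted p = 0.00137), a call kept without any 1 of the 4 libraries (0.39 to 0.45). At 5 days it was higher by 0.28 ± 0.086 (edgeR, adjusted p = 0.0108), with both mutant libraries above both of WT. That call was lost without mutant 5-day replicate 2 (0.19), without WT 5-day replicate 2 (0.23) and with library totals (0.17). At 12 h it was lower, at -0.26 ± 0.0803 (edgeR, adjusted p = 0.0433), a call lost without mutant 12-h replicate 2 (-0.14; -0.39 without replicate 1), without either WT 12-h replicate (-0.23 and -0.29), with library totals (-0.22) and in a fit of those 4 libraries alone (-0.24). At 3 days the difference was -0.13, with an interval from -0.31 to 0.05, and with library totals it was -0.36, past the threshold (edgeR, adjusted p = 0.00139). The mutant's rise from 3 to 5 days, 0.27 ± 0.0855 (edgeR, adjusted p = 0.0129), was lost without either 3-day replicate (0.22 and 0.26) or without 5-day replicate 2 (0.18), and was 0.44 with library totals. It exceeded the WT step by 0.41 ± 0.122 (edgeR, adjusted p = 0.0107), which was lost without mutant 5-day replicate 2 or WT 5-day replicate 2 (0.32 each).

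vvd, the photoadaptation gene, had its highest mean at 5 days in both strains and differed by over 2-fold between the replicates of 2 groups. WT libraries held 259 and 184 CPM at 12 h, 382 and 341 at 1 day, 281 and 305 at 3 days, and 673 and 333 at 5 days. The mutant's held 204 and 152, 151 and 313, 221 and 213, and 560 and 506 CPM. The strains overlapped at 12 h and 5 days; at 1 and 3 days both mutant libraries lay below both of WT. No genotype difference passed the threshold: the log2 values were -0.31, -0.64, -0.43 and 0.08 at the 4 ages (edgeR, adjusted p = 0.528, 0.0978, 0.21 and 0.815). The 95% interval at 5 days ran from -0.53 to 0.69, so the data allow differences within that range. The 3-day difference passed when the spread came from those 4 libraries alone (-0.43; edgeR, adjusted p = 3.88e-06), and also in a fit chosen after seeing the data that left out the mutant 1-day and WT 5-day libraries (-0.43; edgeR, adjusted p = 0.00342).

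The rise of vvd in the mutant from 3 to 5 days was the largest of its called changes, at 1.30 ± 0.293 on the log2 scale, or 2.46-fold (edgeR, adjusted p = 0.00105), and was called without any 1 of the 4 libraries. The WT rise over the same days was 0.78 ± 0.29 (edgeR, adjusted p = 0.0323) but 0.18 without WT 5-day replicate 1 and 1.2 without replicate 2. The call was also lost without either WT 3-day replicate (0.72 and 0.84) and in DESeq2's test (adjusted p = 0.0756). The mutant's step minus that of WT was 0.52 (edgeR, adjusted p = 0.307). It was 1.12 without WT 5-day replicate 1, past the threshold, and went down to 0.055 with another library left out. The WT rise from 12 h to 1 day, 0.71 ± 0.292 (edgeR, adjusted p = 0.0492), was lost without WT 12-h replicate 2 (0.48) or either 1-day replicate (0.62 and 0.78), in DESeq2's test (adjusted p = 0.102) and with library totals (0.69; edgeR, adjusted p = 0.0505). The WT step from 1 to 3 days, -0.30, passed in a fit of those 4 libraries alone (-0.33; edgeR, adjusted p = 7.59e-05). In the mutant the step from 12 h to 1 day was 0.38 (edgeR, adjusted p = 0.322), but 0.81 and past the threshold without mutant 1-day replicate 1 (edgeR, adjusted p = 0.0192) and -0.24 without replicate 2. The genotype difference at 1 day was -0.21 without mutant replicate 1 (edgeR, adjusted p = 0.607) and -1.26 without replicate 2 (edgeR, adjusted p = 0.0021).

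cry, the cryptochrome gene, had the widest range of group means and the highest values in the mutant at 3 and 5 days. WT libraries held 147 and 121 CPM at 12 h, 150 and 142 at 1 day, 221 and 233 at 3 days, and 213 and 94.0 at 5 days. Mutant levels were 93.8 and 89.5, 99.9 and 156, 290 and 271, and 318 and 316 CPM. Mutant libraries lay below both of WT at 12 h and above both at 3 and 5 days. At 5 days the mutant was higher by 1.05 ± 0.246, or 2.07-fold (edgeR, adjusted p = 0.00162). The value was 0.57 without WT 5-day replicate 2 and 1.75 without replicate 1, past the threshold in both. At 12 h the difference was -0.54 and at 3 days 0.30 (edgeR, adjusted p = 0.168 and 0.294). Both passed in fits of their 4 libraries alone (edgeR, adjusted p = 0.00323 and 0.000272) and in the fit without the mutant 1-day and WT 5-day libraries, at -0.55 and 0.30 (edgeR, adjusted p = 2.61e-05 and 0.00118).

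cry rose from 1 to 3 days in both strains, by 1.13 ± 0.249 on the log2 scale in the mutant (2.19-fold; edgeR, adjusted p = 0.000661) and by 0.64 ± 0.248 in WT (edgeR, adjusted p = 0.0274). The mutant's rise was called without any 1 of its 4 libraries, from 0.84 to 1.49. The WT call was lost without any 1 of its 4 libraries, at 0.60 to 0.67, and in DESeq2's test (adjusted p = 0.0799), and the value was 1.13 with library totals. The steps of the strains differed by 0.49, with an interval from -0.25 to 1.23. With a library left out this difference ran from 0.21 to 0.85, past the threshold only at 0.85, without mutant 1-day replicate 2. From 12 h to 1 day the mutant's step was 0.49 (edgeR, adjusted p = 0.138). With a library left out that step ran from 0.12 to 0.77, past the threshold only at 0.77, without mutant 1-day replicate 1. The WT step from 3 to 5 days was -0.57 (edgeR, adjusted p = 0.0609), -1.27 without WT 5-day replicate 1 (edgeR, adjusted p = 2.17e-05) and -0.10 without replicate 2. The mutant's step minus that of WT over those days was 0.74 (edgeR, adjusted p = 0.0827), and ran from 0.23 without WT 5-day replicate 2 to 1.45 without replicate 1. In the NC12 reference table cry overlaps the locus NCU00583, which had 0 reads in 15 libraries and 1 read in the other.

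Within the WT 5-day group, the replicates split the 6 genes. Replicate 1 exceeded replicate 2 by 1.18 on the log2 scale for cry and by 1.02 for vvd, a size of difference that 0.59% and 0.913% of all genes tested exceeded in this pair. For frq, frh, wc-1 and wc-2 the same pair differed by 0.15, 0.09, 0.09 and -0.14. Each of 11 light-induced genes fixed as a list was also higher in replicate 1, with a median of 0.447 against 0.019 for all genes. Among them were al-1, the phytoene desaturase gene (1.31), and al-2, the phytoene synthase gene (1.06). In WT at 12 h, 1 day and 3 days, 9, 9 and 4 of the 11 were higher in replicate 1. Their medians were 0.309, 0.0916 and -0.00819. In the mutant at 1 day the order was opposite to that of WT at 5 days: replicate 1 minus replicate 2 was -1.05 for vvd, -0.65 for cry and -0.79 for al-1. For wc-1, frq, wc-2 and frh this pair differed by -0.31, -0.18, -0.18 and 0.03. Of the 11 light-induced genes 3 were higher in replicate 1, against 5, 2 and 4 in the mutant at 12 h, 3 days and 5 days. Of the 48 pairs of replicates for the 6 genes, 3 differed by over 2-fold, all of them in WT at 5 days or the mutant at 1 day. What set the replicates apart was not tested.

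**Figure D4:**
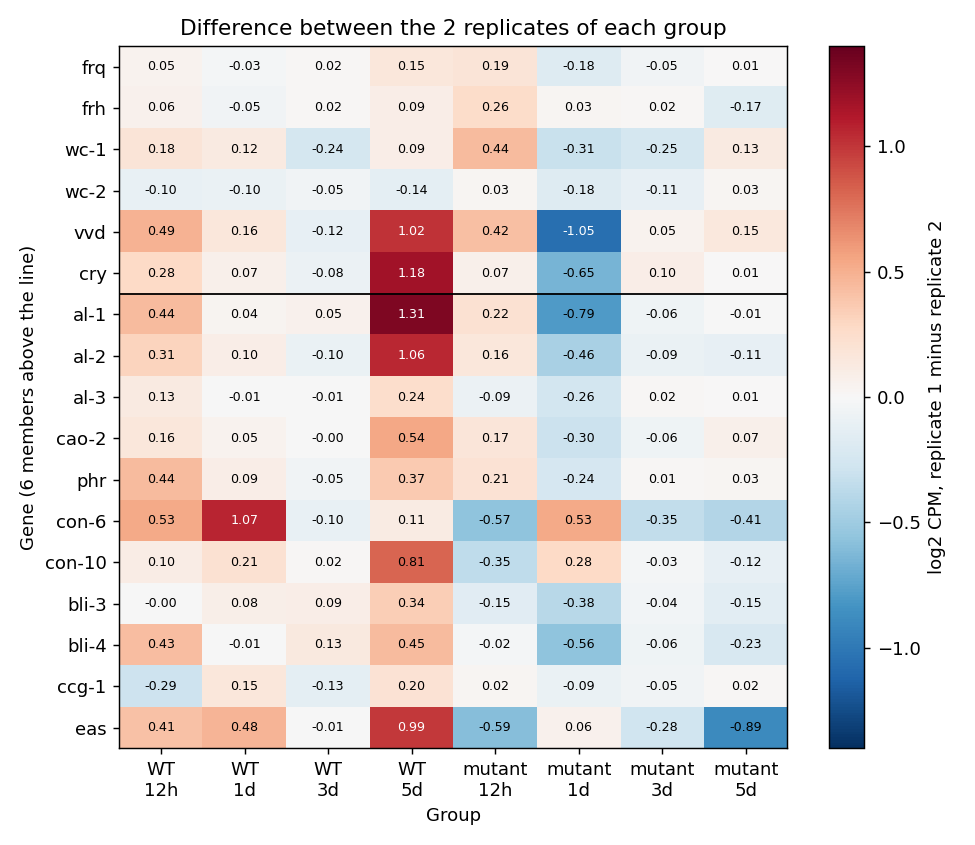
Log2 CPM of replicate 1 minus replicate 2 in each of the 8 groups, for the 6 genes (above the line) and the 11 light-induced genes. In WT at 5 days vvd (1.02), cry (1.18), al-1 (1.31) and al-2 (1.06) are higher in replicate 1, while frq, frh, wc-1 and wc-2 lie between -0.14 and 0.15.

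Other factors of the clock were taken as a list of 16 genes, all tested. The counts of this list and of those below stand beside the shares of all genes called higher and lower in the mutant, 6.53 and 6.51% at 12 h, 19.1 and 18% at 1 day, 29.4 and 30% at 3 days, and 30.6 and 30.9% at 5 days. At 12 h 1 was lower in the mutant and 0 higher, with a median log2 difference of 0.04 against -0.03 for all genes. The lower gene was csp-1, a transcriptional repressor under clock control (-0.62 ± 0.141; edgeR, adjusted p = 0.00817), a call lost without WT 12-h replicate 1 or mutant 12-h replicate 2. At 1 day 1 was higher and 3 lower (median -0.14; all genes 0.02), among them prd-6, a helicase of nonsense-mediated decay (0.34), mcb, the regulatory subunit of protein kinase A (-0.42), and prd-4, a checkpoint kinase (-0.34). At 3 days 0 were higher and 7 lower (median -0.13; all genes -0.02), with csp-1 at -1.22 ± 0.14 and bd, the ras-1 gene, at -0.47. At 5 days 10 were higher and 2 lower (median 0.27; all genes -0.01). The higher ones at that age included rcm-1, a corepressor subunit (0.46), and pph-3, listed also as ppp-1 (0.41), and the lower ones were mcb (-0.37) and bd (-0.31). With library totals the counts were 1 and 1, 4 and 1, 0 and 13, and 7 and 2, and the 1-day median was 0.02. The 1-day count of lower genes was 6 with DESeq2's size factors and 1 without WT 1-day replicate 2 or mutant 1-day replicate 1. Without mutant 3-day replicate 1 the 3-day count was 2 higher and 6 lower, and without WT 3-day replicate 2 it was 1 and 7.

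By library, csp-1 in WT held 51.0 and 49.3 CPM at 12 h, 79.9 and 81.4 at 1 day, 79.0 and 76.7 at 3 days, and 79.7 and 54.0 at 5 days, and the mutant 36.3 and 28.9, 64.4 and 69.4, 30.8 and 35.9, and 78.1 and 71.1. Mutant libraries were below both WT libraries at 12 h, 1 day and 3 days, and the strains overlapped at 5 days.

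Of 7 other photoreceptors and light signalling genes, 1 was higher and 0 lower in the mutant at 12 h, 0 and 0 at 1 day, 2 and 1 at 3 days, and 5 and 1 at 5 days. The medians were 0.12, 0.15, -0.07 and 0.31, against -0.03, 0.02, -0.02 and -0.01 for all genes. At 5 days 5 of 7 higher stood beside 30.6% of all genes. The opsin gene nop-1 passed from higher at 12 h (0.40) to lower at 3 days (-0.40) and 5 days (-0.83 ± 0.0867; edgeR, adjusted p = 4.99e-07). At 3 days the phytochrome gene phy-2 (0.62) and the response regulator gene rrg-1 (0.38) were higher. At 5 days sub-1, a GATA factor gene, was higher by 1.23 ± 0.104 and rrg-1 by 1.09 ± 0.0777 (edgeR, adjusted p = 4.56e-08 and 5.37e-09). sub-1 held 40.7 and 42.5 CPM in WT and 103 and 93.1 in the mutant at 5 days, with no overlap. With library totals 4 and 0 of the list were called higher and lower at 1 day, and 1 and 5 at 3 days. The 12-h count was 0 and 0 without mutant 12-h replicate 2. At 3 days it was 2 and 2 without mutant 3-day replicate 2, and the median was 0.04 without replicate 1.

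Known targets of light formed a list of 11 genes, of which 0 were higher and 3 lower in the mutant at 12 h, 0 and 6 at 1 day, 1 and 9 at 3 days, and 5 and 3 at 5 days. The medians were -0.42, -0.57, -0.77 and 0.23, where those of all genes were -0.03, 0.02, -0.02 and -0.01. The 9 lower at 3 days stood beside 30% of all genes. Fewer were called lower at 3 days without any 1 of the 3-day libraries, with medians from -0.82 to -0.68. The 12-h count of lower genes was 1 without WT 12-h replicate 1 or mutant 12-h replicate 2, and that at 1 day was 3 without WT 1-day replicate 1. The 1 higher gene at 3 days, al-1, was not called without either WT 3-day replicate or without mutant 3-day replicate 2. eas, the hydrophobin gene of conidia, was lower in the mutant at 1, 3 and 5 days, with log2 fold changes of -3.12, -5.16 and -3.82. Those of con-6 were -1.82 ± 0.511, -3.60 ± 0.351 and -2.60 ± 0.257 (SE), and its WT 1-day replicates differed 2.09-fold. con-10 was lower at 12 h (-0.98), as was bli-4 (-0.66). These were not all genes of one role: eas, con-6, con-10 and ccg-1 are conidiation markers as well, so the list shares them with the sum of conidiation markers given above. al-1 went the other way at the later ages, higher by 0.84 ± 0.285 at 3 days and 1.25 ± 0.289 at 5 days (edgeR, adjusted p = 0.0179 and 0.00139), and bli-3 was higher at 5 days (0.77). Without WT 5-day replicate 2 the 5-day count was 4 higher and 4 lower with a median of -0.21, and without replicate 1 it was 6 and 3 with a median of 0.50.

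**Figure D5:**
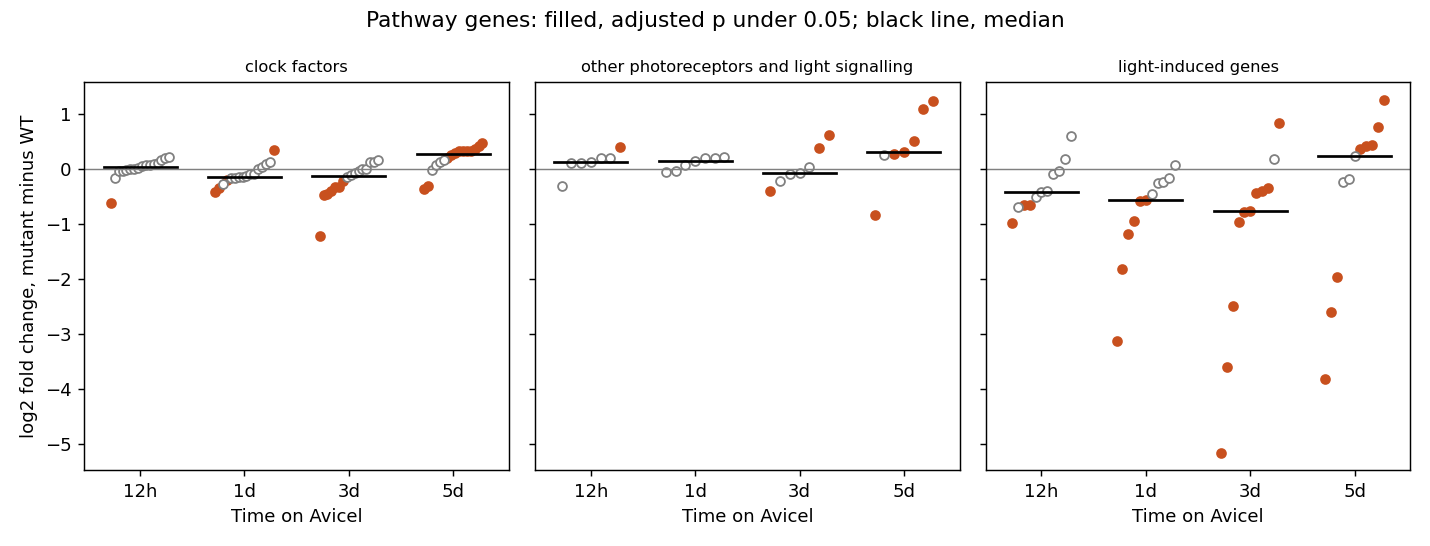
Log2 fold change of mutant minus WT for the genes of 3 lists (16 clock factors, 7 other photoreceptors and light signalling genes, 11 light-induced genes) at the 4 ages; filled points have an adjusted p under 0.05 and the black line is the median. The median of the light-induced genes is below 0 at 12 h, 1 day and 3 days and 0.23 at 5 days, where the sign depends on WT 5-day replicate 2 (-0.21 without it).

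The 8 conidiation markers counted 1 higher and 1 lower at 12 h, 0 and 4 at 1 day, 0 and 7 at 3 days, and 3 and 4 at 5 days, with medians of -0.33, -0.44, -1.22 and -0.83, beside the same medians and shares of all genes as above. The 12-h count was 0 and 1 without WT 12-h replicate 1 and 2 and 1 without mutant 12-h replicate 1. With the stricter filter on low counts, 7 markers were left at 5 days, 3 higher and 3 lower, with a median of 0.24. fl, the regulator of conidiation, was higher at 12 h (0.52) and at 5 days (1.85 ± 0.132; edgeR, adjusted p = 5.72e-09), as was con-8 at 5 days (1.73). The lead of fl at 12 h was not held at 1 day. Its step in the mutant was below that of WT from 12 h to 1 day (-1.16 ± 0.181, edgeR adjusted p = 0.000582). From 3 to 5 days it was above that of WT (2.15 ± 0.18, edgeR adjusted p = 7.29e-08). Of 12 genes named as clock-controlled (ccg), 1 was higher and 3 lower at 12 h, 0 and 8 at 1 day, 5 and 5 at 3 days, and 7 and 5 at 5 days, beside the same shares of all genes. The 12-h count was 2 and 3 without mutant 12-h replicate 1. At 3 days ccg-14 (1.15) and ccg-9 (0.90) were higher. The highest at 5 days were cmt, the metallothionein gene listed also as ccg-12 (1.85), and gpd-1, a glycolytic dehydrogenase gene (1.84), and ccg-13 was lower (-4.50). The mating pheromone gene ccg-4 had 3571 reads or more in every WT library and 0 to 3 in those of the mutant. It was among the lower genes counted at each age. matA-1 also had 0 reads in the mutant, so for ccg-4 effects of mating type and of stk-12 cannot be told apart.

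Across the 16 libraries, which share depth, scaling and culture age between genes, log2 CPM of frq ran with that of cry (Pearson r = 0.875), wc-2 (0.781), vvd (0.739) and wc-1 (0.691). frh ran against wc-2 (-0.76), frq (-0.686) and cry (-0.627). wc-1 and wc-2, whose proteins form a complex, had an r of 0.313. As a description over the same libraries, the genes most like frh were rbg-7 (r = 0.992), drh-3, an RNA helicase gene (0.982), and NCU00301, annotated as a Sas10/Utp3 family protein (0.98), and 422 genes exceeded an r of 0.9 with it. For wc-2 they were NCU06153, annotated as a monooxygenase (0.968), NCU08851 and NCU09694, with 94 genes above 0.9. For frq they were NCU04274, annotated as nuclear envelope protein Cut8 (0.957), NCU01451 and NCU04291, with 90 above 0.9. wc-1 had 9 genes above 0.9, led by NCU15834 (0.94), NCU02623 and NCU08378, annotated as CreB. cry had 2, NCU08092 (0.912) and NCU08095, followed by NCU01926. vvd had 0, and its closest was NCU07806 at 0.894, then NCU04416 and NCU06931.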

How the data were processed

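Total RNA of mycelia was sequenced in 16 libraries, 2 for each strain and culture age. The table deposited by the authors gives a read count per gene and RPKM values; TopHat2 (2.0.8b), a spliced aligner, and HTSeq (0.5.4p3), a read counter, are named per the submitters' processing notes. Genome build and strand of counting are not given in the sources used here. All 146267 deposited RPKM values above 0 followed from the count, the total of gene reads and 1 length per gene (relative tolerance 0.001); they served only to compare genes within a library. Entries that named no gene, in 2 libraries, were left out (4.43 and 6.86% of reads). Counts were filtered (filterByExpr, which removed 747 genes), scaled by TMM and fitted with edgeR (4.0.16, R 4.3.3), with 1 mean per group over 16 libraries and 8 residual degrees of freedom, after a test on simulated data. Adjusted p-values follow Benjamini and Hochberg over 8983 genes, threshold 0.05; log2 differences subtract WT from mutant, or the earlier from the later age, and the standard error is the absolute log2 fold change over the square root of F. DESeq2 (1.42.0), other scalings, filters and left-out libraries were alternatives. The 6 genes and the lists were chosen with earlier results of these data known. List genes named are at most the 2 called of largest change in each direction per time; genes most alike are the 3 of highest r; csp-1 and sub-1 are given by library, and the list genes in the replicate comparison named, after their values were seen.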

Additional observations from a re-analysis of the deposited data

Results flagged for a closer look

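A difference between strains that was itself unequal over time or between steps marks the results that a reader may want to look at again, by tests of the difference in the edgeR fit. The test that the genotype difference was equal at the 4 ages gave an adjusted p of 8.65e-06 for wc-1, 0.000198 for frh, 0.00184 for wc-2, 0.00372 for cry and 0.00907 for frq (edgeR). The value for frq was 0.0505 without WT 5-day replicate 2. For wc-1 the mutant's step minus the WT step was -0.602 on the log2 scale from 12 h to 1 day, 0.883 from 1 to 3 days and 0.811 from 3 to 5 days. For frh it was 0.678, -0.548 and 0.406 over the same steps. For wc-2 it was 0.514 from 1 to 3 days. With library totals the wc-2 value was 0.13 (edgeR, adjusted p = 0.36), and its test over the 4 ages gave an adjusted p of 0.635 (edgeR). The wc-1 value from 12 h to 1 day was -0.48 with library totals (edgeR, adjusted p = 0.0805). It ran from -0.80 to -0.36 with a library left out. No group had enough libraries for a test of outlying samples.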

How the results depend on the processing

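Alternatives were library totals or DESeq2's size factors in place of TMM, DESeq2's test, no or a stricter filter on low counts, the 2 compared groups alone, a replicate block and each library left out; a fit without the mutant 1-day and WT 5-day libraries was chosen after seeing the data. The replicate block changed 0 of 84 calls (wc-1 at 5 days stayed at 1.12); same-numbered libraries of the strains did not deviate together (r -0.0751 to 0.0577 over 4 pairs), so the numbers were not taken to pair samples. Each of the 6 genes had at least 684 reads in every library. The cause of the changes below was not tested.

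Of the 6 genes, 1 differed between strains at 12 h, against 0 with library totals and 2 in the added fit. At 3 days 1 differed, against 2 with library totals, with DESeq2's size factors and with DESeq2's test, and 4 with the 2 groups alone and in the added fit. Library totals gave 2 in place of 1 for the mutant's step from 12 h to 1 day, and 1 in place of 2 and 4 in place of 2 for the steps that differed between strains from 12 h to 1 day and from 3 to 5 days. DESeq2's test gave 1 in place of 2 for WT from 3 to 5 days. With a library left out, the counts ran from 0 to 1 at 12 h, 1 to 2 at 3 days, 1 to 3 for the mutant from 12 h to 1 day, 2 to 4 for the mutant from 3 to 5 days, 0 to 1 for WT from 3 to 5 days, and 1 to 2 and 1 to 5 for the differing early and late steps.

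With library totals the sign turned for frh in WT from 1 to 3 days (0.0081), frq at 1 day (0.11) and 3 days (-0.13) and in its differing step from 1 to 3 days (-0.24). It also turned for vvd in the mutant (0.0031) and WT (0.19) from 1 to 3 days, at 5 days (-0.0081) and in its differing step from 1 to 3 days (-0.18), and for wc-2 at 1 day (0.11), in the mutant from 3 to 5 days (0.15) and in its differing step from 3 to 5 days (0.020). Except for frh, none of these was past the threshold.

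Leaving out a library turned the sign only of values not past the threshold. For genotype differences the ranges were -0.55 to 0.099 for cry at 1 day, -0.18 to 0.0066 and -0.14 to 0.039 for frq at 12 h and 1 day, -0.34 to 0.68 for vvd at 5 days, -0.21 to 0.23 for wc-1 at 12 h and -0.14 to 0.042 for wc-2 at 1 day. For steps within a strain they were -0.0070 to 0.28 for cry in WT from 12 h to 1 day, -0.052 to 0.11 for frq in WT from 3 to 5 days, and in the mutant -0.075 to 0.18 for frh, -0.24 to 0.81 for vvd and -0.054 to 0.38 for wc-1 from 12 h to 1 day, -0.53 to 0.52 for vvd and -0.14 to 0.17 for wc-1 from 1 to 3 days, and -0.14 to 0.027 for wc-2 from 3 to 5 days. For differing steps they were -0.0042 to 0.64 for cry, -0.061 to 0.13 for frq and -0.95 to 0.11 for vvd from 12 h to 1 day, and -0.23 to 0.83 for vvd from 1 to 3 days.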
